A study of Mus musculus with 12 samples.

Results

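Necrotizing enterocolitis (NEC) was compared with no injury in the small intestine of floxed mice, which carry the floxed Piezo1 allele without the knockout. The comparison held 6 of the 12 libraries of the series, 3 flox NEC and 3 flox control, chosen by their labels and not by any measured value. The other 6 libraries came from mice with Piezo1 knocked out in intestinal epithelial cells (CKO), 3 with NEC and 3 without, and are used below only to ask where the flox change differed.

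All mice were C57BL/6J and each library is RNA from whole small intestine, sequenced after Trizol isolation. The age of the mice, the way NEC was induced, the length of intestine sampled, the promoter that drives Cre and whether each library is a separate mouse are not stated in any source used here. The p-values below therefore measure only the spread between these libraries, which may in part be technical. The control and NEC libraries were deposited in separate tables that were scaled separately, so condition and table cannot be told apart in any value below.

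NEC is an inflammatory, necrotic disease of the immature bowel. The intestinal epithelium renews from crypt stem cells, which give absorptive enterocytes and the secretory goblet, Paneth, enteroendocrine and tuft cells. In suckling rodents enterocytes take up whole milk proteins and digest them in large lysosomes, and at weaning they switch from lactase to sucrase. Type I and III interferons and the antigen-presenting MHC class I molecules are parts of the antiviral and antimicrobial defence of this epithelium. Piezo1 is a stretch-activated cation channel that lets calcium into the cell, and the CaMKII kinases are among the enzymes that calcium and calmodulin switch on.

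Levels are given as rescaled FPKM, that is, a depth-scaled count of fragments per kilobase of gene, recomputed from the recovered reads with the same scaling for all 12 libraries. Changes are differences between group means of log2(rescaled FPKM + 1), NEC minus control, with their standard error (SE), and understate the change of genes at low levels. A gene was called when limma's p-value, adjusted by Benjamini-Hochberg over all 13798 genes tested, was below 0.05. Genes at 1 FPKM or more in at least 3 of the 6 flox libraries were tested. A gene under 1 FPKM in every library of a condition thus entered only through the other condition, which fixed the direction of its change. Examples are Zg16, Retnlg, Ccl9 and Lgr5 among the rises and Lrat, Nr0b2 and Nox4 among the falls. The list counts below include such genes.

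Depth was 14725734 to 16202266 reads in the flox control libraries and 13057724 to 14273692 in the flox NEC libraries, over 54532 genes. Mitochondrially encoded genes took 11.1 to 14.3% of reads in control and 3.80 to 4.52% in NEC libraries, and the 10 most abundant genes took 15.3 to 18.0% and 5.79 to 6.18%. The conditions parted on principal component 1 (76.4% of variance), with the NEC libraries at 46.3 to 51.1 and the control libraries at -53.0 to -43.6. By their Xist level, which is high in female tissue, flox control library 1 and flox NEC libraries 1 and 2 were high and the other 3 were not, so sex was mixed within both groups.

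Flox control library 3 stood apart from the other flox control libraries. On the second principal component, with 11.1% of the variance, it lay at -36.4 and the others at 17.4 and 19.04. Genes that mark position along the small intestine went with this split. Fabp1, a fatty acid binding protein of the proximal small intestine, stood at 322, 792 and 0.515 FPKM in control against 38.4, 145 and 17.6 FPKM in NEC. Gata4, a transcription factor of the proximal small intestine, stood at 11.1, 15.2 and 0.948 FPKM in control against 2.42, 4.41 and 0.559 FPKM in NEC. The distal marker Fabp6, an ileal bile acid binding protein, went the other way, at 46.2, 29.0 and 501 FPKM in control against 332, 206 and 171 FPKM in NEC. Control library 3 thus lay nearer to the NEC libraries than to the other controls for Fabp1 and Gata4, and on the NEC side of the other controls for Fabp6. The change with NEC was not called for any of these 3 genes. Of 10 genes of the proximal intestine 7 were tested and 3 fell, with a median of -0.62, and without control library 3 the count was 5 and the median -1.003. Of 12 distal genes 11 were tested, 3 rose and 2 fell, and without that library 5 rose and 1 fell. Lists that hold these genes, and some others in which control library 3 lay apart, are given below with and without it. The remaining lists are given with all 6 libraries only and may move without it too. The part of position in them was not tested.

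**Figure D1:**
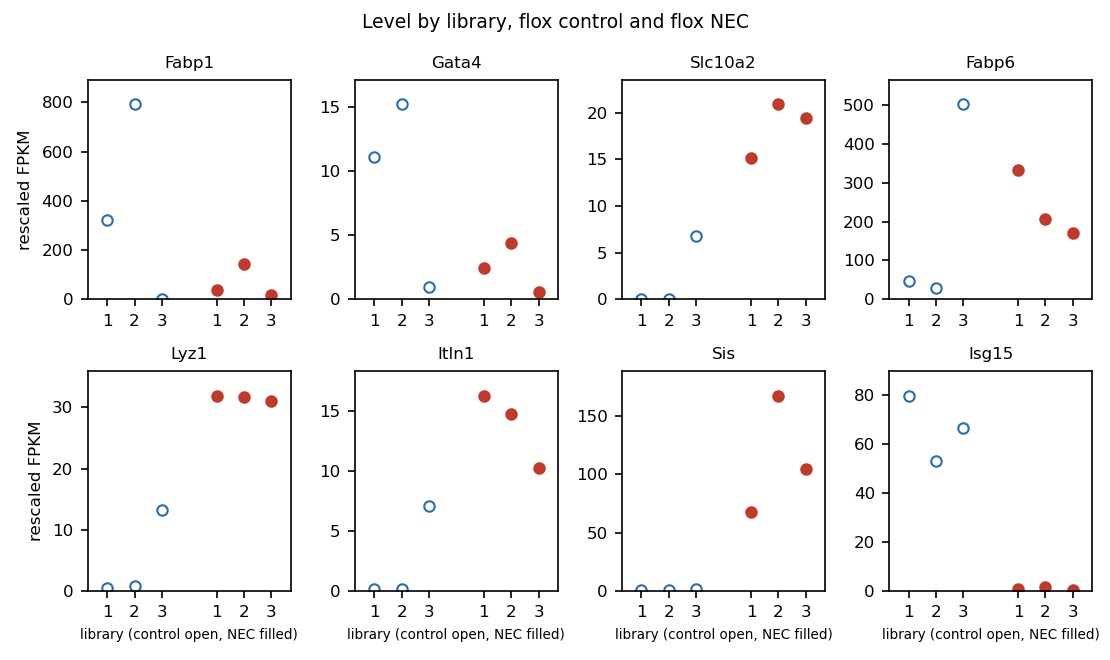
Rescaled FPKM (y axis, linear, from 0) of 8 genes in each library, with the 3 flox control libraries as open points and the 3 flox NEC libraries as filled points. Fabp1, Gata4, Fabp6, Slc10a2, Lyz1 and Itln1 place control library 3 apart from control libraries 1 and 2, while Sis and Isg15 part the conditions in all 6 libraries.

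Enterocyte genes were abundant in all 6 libraries, which bears on the tissue but not on the length of intestine sampled. Vil1, a brush-border protein of enterocytes, stood at 293 to 453 FPKM in control against 251 to 323 FPKM in NEC, and the intestinal fatty acid binding protein gene Fabp2 at 627 to 2283 and 1264 to 2023 FPKM. Of 17 pancreatic acinar genes, 13 stayed under 1 FPKM in every flox library and 6 of those had no read. The samples are bulk tissue, so that fewer cells of a type and less RNA per cell cannot be told apart in any result.

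NEC and control flox intestine differed across a large share of the transcriptome. Of the 13798 genes tested, 3950 were called higher in NEC (28.6%) and 3822 lower (27.7%), and the median change over all genes tested was 0.01. With a change of at least 1 on the log2 scale required as well, 1162 genes were higher (8.42%) and 1412 lower (10.2%). The median SE was 0.15, and the NEC and control libraries did not overlap for 8939 genes.

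The balance between the directions moved with the scaling. With equal library totals in place of median-of-ratios factors, 5491 genes were called higher and 2679 lower, so that 67.2% of calls were higher against 50.8%, and the median over all genes moved to 0.23. With the FPKM as deposited, 4906 genes were higher and 3123 lower, 61.1% of calls, with a median of 0.14. Each list below is therefore read against the median of 0.01 and the shares of 28.6% and 27.7% over all genes.

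**Figure D2:**
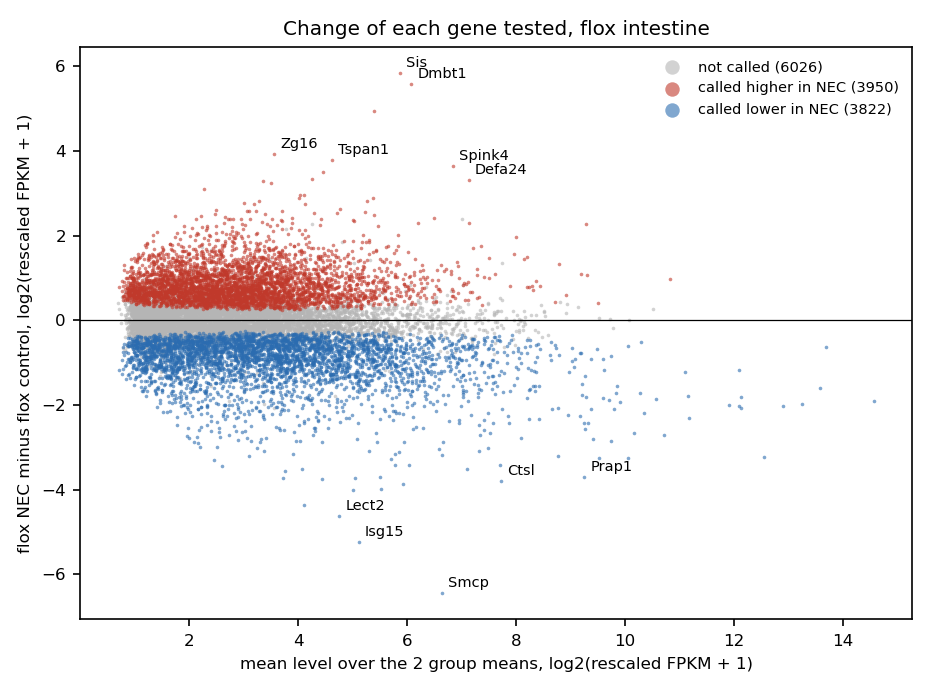
Change of each of the 13798 genes tested (y axis, flox NEC minus flox control, log2(rescaled FPKM + 1)) against its mean level (x axis, same scale), with genes called higher in red, called lower in blue and not called in grey. Sis and Dmbt1 lie farthest up among the named genes, and Smcp and Isg15 farthest down.

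Piezo1, the gene the floxed allele targets, was higher in NEC than in control flox intestine. It stood at 1.42, 1.48 and 1.12 FPKM in control against 6.76, 6.66 and 6.25 FPKM in NEC, a change of 1.69 ± 0.11 SE (adjusted p = 8.72e-05, limma). Every NEC library lay above every control library. Piezo1 (ENSMUSG00000014444, chr8:122481698-122551329, minus strand) shares 24.6% of its exon bases with Ctu2 on the other strand, and the library kit does not mark strand. Ctu2 itself averaged 2.52 FPKM in control against 2.46 FPKM in NEC. In CKO intestine Piezo1 stood at 1.76, 1.06 and 0.953 FPKM without injury and at 4.98, 5.14 and 3.05 FPKM with NEC, a change of 1.25. The difference between the changes, 0.45 ± 0.25 SE, did not pass the threshold (adjusted p = 0.334, limma interaction).

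Among the CaMKII subunits, Camk2d was called and the others were not. Camk2d rose from 4.37, 4.41 and 6.71 FPKM to 8.77, 9.34 and 8.84 FPKM, a change of 0.72 ± 0.16 SE (adjusted p = 0.00631, limma), with no overlap between the groups. Camk2b changed by 0.20 ± 0.17 SE and Camk2g by 0.08 ± 0.18 SE, with adjusted p of 0.338 and 0.717 from the same test. Camk2a lay between 0.615 and 1.05 FPKM in the 6 libraries and did not pass the filter of 1 FPKM in at least 3 libraries.

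Of 17 genes on a list of mechanosensitive and related channels, 9 were tested, 8 rose and 1 was not called, with a median of 0.73. Kcnk1, a 2-pore potassium channel of the TWIK type, went from 2.70, 2.40 and 1.37 FPKM to 15.2, 19.1 and 16.2 FPKM (2.52 ± 0.18 SE). Tmem63b and Tmem63a, hypo-osmolality-gated cation channels, rose by 1.11 and 0.73, and Pkd1, a polycystin, by 0.84. Without control library 3 the list had 7 members higher and a median of 0.58.

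The wider calcium list of 29 tested genes had 13 higher and 4 lower, with a median of 0.32. Slc8a1, a sodium-calcium exchanger, rose from 1.27, 1.37 and 0.582 FPKM to 8.20, 6.61 and 6.88 FPKM. The endoplasmic calcium pumps Atp2a3 and Atp2a2 rose by 1.15 and 1.03, and the calcium store sensors Stim1 and Stim2 by 0.93 and 0.69. Camk2n1, an inhibitor of CaMKII, fell from 50.4, 45.7 and 65.1 FPKM to 15.8, 14.3 and 19.6 FPKM (-1.63 ± 0.17 SE), and the related inhibitor Camk2n2 by 0.76. The inhibitors and Camk2d thus moved in opposite directions.

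The 15 largest rises were led by Sis and Dmbt1. Sis (ENSMUSG00000027790, chr3:72888557-72967863, minus strand) encodes sucrase-isomaltase, the brush-border enzyme that splits sucrose. It stood at 0.754, 0.717 and 1.17 FPKM in control against 68.0, 168 and 105 FPKM in NEC, a ratio of means of 129 and a log2 change of 5.84 ± 0.30 SE (adjusted p = 4.49e-05). The lowest NEC library lay far above the highest control library, and 283 reads in the 3 control libraries faced 39016 in the 3 NEC libraries. Dmbt1 (chr7:131032053-131121630, plus strand), a secreted scavenger glycoprotein of mucosal defence, rose from 1.14, 2.11 and 2.02 FPKM to 96.8, 151 and 147 FPKM (5.58 ± 0.22 SE). Tspan1, a tetraspanin, rose from 1.96 to 2.65 FPKM in control to 41.9 to 50.8 FPKM in NEC. Slc35g1, a solute carrier, rose from 2.70 to 2.98 FPKM to 25.9 to 36.0 FPKM, and Scin, an actin-severing protein, from 1.56 to 4.20 FPKM to 17.4 to 40.6 FPKM.

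Others of the 15 largest rises belong to lists described below: Zg16, Spink4, Lyz1, Defa24, Mmp7, Slc10a2, Pigr and Fkbp5. Clca4a and Clca3b, of the calcium-activated chloride channel regulator family, changed by 3.50 ± 0.67 SE and 2.81 ± 0.27 SE. Clca4a spread widely, from 0.135 to 6.56 FPKM in control and from 22.4 to 62.4 FPKM in NEC, and belongs to a family of near-identical copies, so its share of reads is uncertain.

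The 15 largest falls were led by Smcp and the interferon-stimulated gene Isg15. Smcp (ENSMUSG00000074435, chr3:92583867-92588997, minus strand), best known for a cysteine-rich protein of the sperm mitochondrial capsule, stood at 254, 173 and 161 FPKM in control against 0.440, 1.26 and 2.39 FPKM in NEC. Its change of -6.44 ± 0.31 SE (adjusted p = 4.49e-05) was larger than that of any other called gene, at 144 times more in control by the ratio of means. Lect2, a secreted chemotactic protein, fell from 44.2, 68.7 and 40.6 FPKM to 1.68, 0.764 and 0.864 FPKM (-4.62 ± 0.24 SE). Afp, alpha-fetoprotein, fell from 27.9 to 32.3 FPKM in control to 1.34 to 2.61 FPKM in NEC (-3.51 ± 0.18 SE). For all 3 genes the groups lay far apart.

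Metabolic genes were also among the largest falls. Dio1, the deiodinase that activates thyroid hormone, fell from 50.8, 56.1 and 75.4 FPKM to 3.09, 3.34 and 4.63 FPKM (-3.71 ± 0.18 SE). Pck1, the gluconeogenic enzyme PEPCK, fell from 256, 360 and 136 FPKM to 10.8, 34.1 and 20.1 FPKM (-3.50 ± 0.46 SE). Prap1, a secreted epithelial protein, went from 996 to 1220 FPKM in control to 71.4 to 105 FPKM in NEC. It shares 27.3% of its exon bases with Fuom on the other strand, which averaged 15.1 FPKM in control against 4.08 FPKM in NEC. Fndc5, the precursor of irisin, changed by -4.01, and the kinesin gene Kif12 by -3.42.

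**Figure D3:**
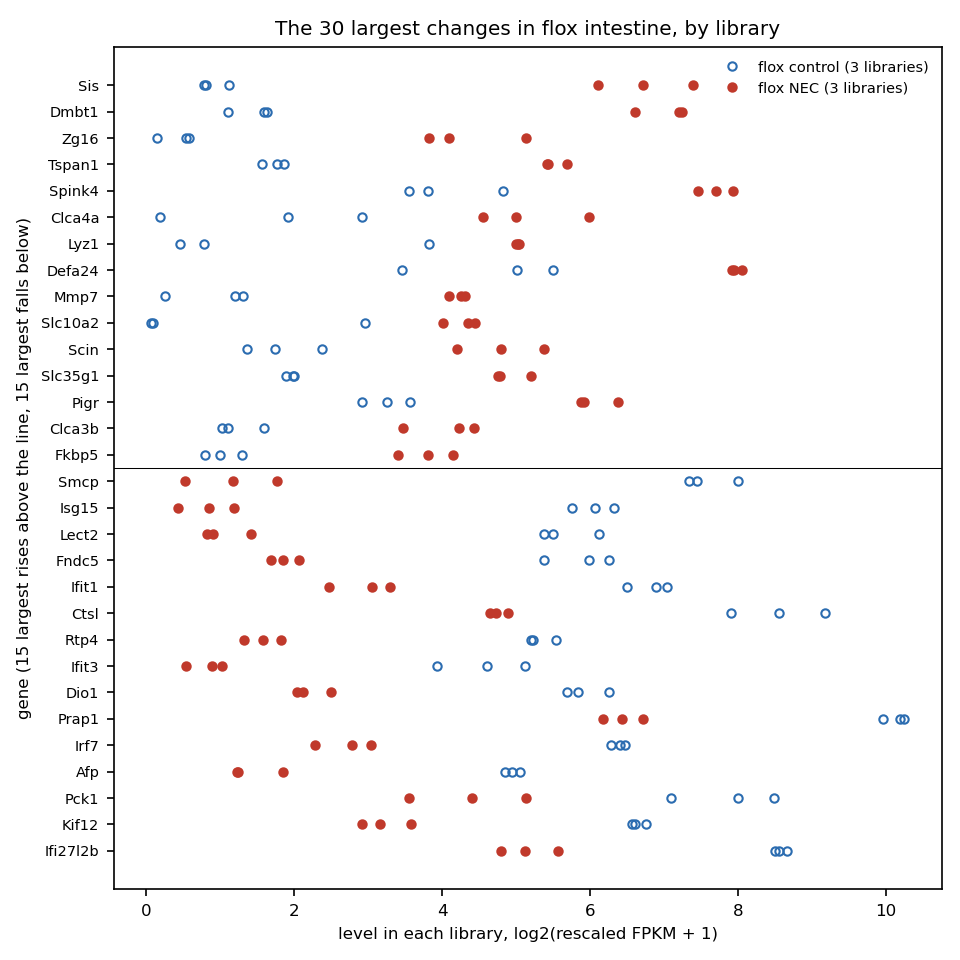
Level of the 15 top rises and 15 top falls in each of the 6 flox libraries (x axis, log2(rescaled FPKM + 1)), with the 3 control libraries as open blue points and the 3 NEC libraries as filled red points. The groups do not overlap for any of these genes, which their choice required, and Lyz1 and Slc10a2 have 1 control library, number 3, far nearer to the NEC libraries.

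Interferon-stimulated genes fell together in NEC. Of 19 such genes listed, 15 were tested, 14 fell and the other 1 was not called, with a median of -2.003, and 11 of them fell by at least 1 on the log2 scale. Isg15 (chr4:156199424-156200818, minus strand), a ubiquitin-like protein made in response to interferon, stood at 79.6, 53.1 and 66.4 FPKM in control against 0.798, 1.27 and 0.350 FPKM in NEC (-5.24 ± 0.22 SE, adjusted p = 4.38e-05). The control level was 82.5 times the NEC level by the ratio of means. Without control library 3 the list had 13 members lower and a median of -2.02.

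Sensors, effectors and transcription factors of the response all took part in that fall. Ifit1 and Ifit3, which bind foreign RNA or hold such binders together, went from 118, 131 and 89.9 FPKM to 4.54, 8.84 and 7.27 FPKM and from 23.3, 33.7 and 14.2 FPKM to 0.845, 1.02 and 0.455 FPKM. Irf7, the transcription factor that amplifies the response, fell from 87.8, 77.2 and 83.6 FPKM to 3.87, 5.86 and 7.20 FPKM (-3.69 ± 0.19 SE). Oas1a and Oasl2, of the oligoadenylate synthetase family, fell by 2.62 and 3.16, and Bst2, tetherin, by 3.09. Rtp4 and Ifi27l2b, also known as interferon-inducible though not on the list, were among the 15 largest falls at -3.75 and -3.41. In CKO intestine the list's median was -2.09, with Isg15 at -3.62 and Irf7 at -3.04. The interferon genes Ifnb1 and Ifng had no read in any flox library.

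Promoter stretches are shown for 4 of these genes, because the group moved together and a known interferon response motif is defined by letters. Each is the 150 bases before the transcription start on the gene's own strand, 5′ to 3′, from RefSeq on GRCm38.p6, with matches to GAAANNGAA on either strand in capitals, as its reverse complement where it lies on the other strand. The windows are chr4:156200819-156200968 for Isg15 (minus strand), chr19:34640739-34640888 for Ifit1 (plus strand), chr19:34583379-34583528 for Ifit3 (plus strand) and chr7:141266425-141266574 for Irf7 (minus strand).
Isg15: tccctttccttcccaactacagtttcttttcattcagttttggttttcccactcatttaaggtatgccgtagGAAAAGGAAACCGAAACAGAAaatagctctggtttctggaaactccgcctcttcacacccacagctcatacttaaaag
Ifit1: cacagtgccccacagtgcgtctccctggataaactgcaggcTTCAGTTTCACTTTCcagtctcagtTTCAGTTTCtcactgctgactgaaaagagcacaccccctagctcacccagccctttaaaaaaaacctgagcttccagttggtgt
Ifit3: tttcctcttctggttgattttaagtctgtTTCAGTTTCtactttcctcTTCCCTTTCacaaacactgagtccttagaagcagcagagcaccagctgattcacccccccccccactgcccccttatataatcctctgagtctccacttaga
Irf7: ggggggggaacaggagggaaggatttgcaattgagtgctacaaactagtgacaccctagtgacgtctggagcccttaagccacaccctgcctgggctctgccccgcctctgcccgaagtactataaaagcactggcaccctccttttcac
The stretches of Isg15 and Ifit1 held 3 matches each, overlapping in part, and that of Ifit3 held 2, while these letters were not in the Irf7 window. Over 300 bases, 250 before the start to 50 after it, 8 of the 12 tested list members with a promoter in the table held a match (66.7%). The share was 8.38% over all 9778 tested genes with a promoter, 9.28% in genes called lower and 7.30% in genes called higher. A match describes letters and does not show that a factor binds there. The RefSeq starts are not always those of the gene coordinates used in this report. By those coordinates the Ifit1 and Irf7 windows run partly into their genes.

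Genes for MHC class I and its peptide supply fell as well. All 12 tested of 14 listed genes were called lower, 11 of them by at least 1, with a median of -1.52, against 27.7% called lower over all genes. B2m, the invariant chain of MHC class I, fell from 946, 880 and 1046 FPKM to 195, 196 and 209 FPKM (-2.25 ± 0.12 SE, adjusted p = 5.21e-05). The heavy chains H2-D1 and H2-K1 fell by 1.64 and 1.19, Tapbp, which loads peptide onto them, by 1.77, and the immunoproteasome subunits Psmb8 and Psmb9 by 1.97 and 1.89. H2-D1 and H2-K1 belong to a family of similar genes, and Psmb9 shares 5.79% of its exon bases with Tap1 on the other strand, so the division of reads is uncertain for them. The list's median was -0.95 in CKO intestine, and -1.25 in flox without control library 3.

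Some lymphocyte markers were also lower in NEC, beside these falls. Of 11 B and plasma cell genes 4 were tested, 2 fell and 1 rose, the epithelial IgA carrier Pigr described below. The summed level overlapped at 14.8 to 95.1 FPKM in control against 59.4 to 89.9 FPKM in NEC. Pigr alone gave 6.56 to 10.8 FPKM of it in control and 57.8 to 82.2 FPKM in NEC. The NEC sums were thus mostly Pigr and say little of B cells. Cd79a and Cd79b, the signalling chains of the B cell receptor, fell from 7.54, 1.15 and 15.7 FPKM to 0.184, 0.0876 and 1.18 FPKM and from 6.21, 1.02 and 15.3 FPKM to 0.562, 0.446 and 0.647 FPKM. Control library 3 was the highest control and control library 2 lay close to the NEC libraries, and without control library 3 only 1 of the genes on this list was called lower. Cd79a lost its call in 7 of 20 alternatives and Cd79b in 9 of 18. Of the T cell and cytotoxic list 3 of 15 genes were tested and Trac, the constant part of the T cell receptor alpha chain, changed by -1.08 ± 0.35 SE and lost its call in 8 of 20 alternatives, while 8 of the 15 stayed under 1 FPKM in every library. The summed level of that list was 10.6 to 19.3 FPKM in control against 5.22 to 9.37 FPKM in NEC. The part of lymphocyte number in the interferon and MHC values was not tested.

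The cytokines known for acute inflammation were at or near the floor in both conditions. Of 20 inflammatory cytokine genes, 15 stayed under 1 FPKM in all 6 libraries, Il6, Tnf and Il1b among them, and 5 were tested. Il33, an alarmin stored in the nucleus, rose from 1.67, 1.81 and 1.13 FPKM to 3.64, 4.42 and 2.91 FPKM (0.87 ± 0.17 SE). Lif, a cytokine of the interleukin 6 family, and Il18, which is matured by caspase 1, fell by 0.90 and 0.67. The summed level of the list was 27.5 to 32.9 FPKM in control against 16.9 to 23.4 FPKM in NEC.

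Chemokine genes changed in both directions. Of 24 chemokine genes, 11 were tested, 6 rose, 2 fell and 3 were not called, with a median of 0.44. Ccl6 went from 3.21, 3.80 and 3.41 FPKM to 25.6, 27.2 and 35.5 FPKM (2.75 ± 0.14 SE), and Ccl9 from 0.624, 0.114 and 0.491 FPKM to 6.34, 6.64 and 6.08 FPKM (2.40 ± 0.16 SE). Ccl28 and Ccl25, which draw lymphocytes to mucosa, rose by 1.41 and 0.44, Ccl11, which draws eosinophils, by 1.94 and Cxcl12, a stromal chemokine, by 1.01. Cx3cl1, which binds macrophages and other cells with its receptor, fell by 0.66. Cxcl1, Cxcl2 and Cxcl5, which draw neutrophils, and Ccl2, which draws monocytes, did not pass the filter.

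Neutrophil genes showed no shared direction. Of 16 listed, 12 stayed under 1 FPKM in all 6 libraries, Ly6g had no read, and the summed level was 8.98 to 15.96 FPKM in control against 14.2 to 17.0 FPKM in NEC. Of the 4 tested, Mmp9 and Retnlg rose and Ltf and Camp fell, although Mmp9 lost its call in 5 of 21 alternatives. Retnlg had no read in the control libraries and stood at 1.24, 1.29 and 2.01 FPKM in NEC. It passed the filter through the NEC libraries alone, so it could only count as a rise. Ltf, lactoferrin, went from 4.05, 3.55 and 3.65 FPKM to 1.20, 0.703 and 1.46 FPKM. The list's median lay at 0.00 and turned from below to above 0 with equal library totals (0.19).

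Macrophage genes were divided. Csf1r, the receptor for the macrophage growth factor, fell from 79.3, 71.1 and 59.9 FPKM to 18.7, 21.3 and 23.0 FPKM (-1.69 ± 0.14 SE), although it shares 15.1% of its exon bases with Hmgxb3 on the other strand. Cd68, a lysosomal glycoprotein of macrophages, fell by 1.44 and C1qa, a complement subunit they make, by 0.76. Cd163 and Mrc1, scavenger and mannose receptors of tissue macrophages, rose by 1.01 and 0.82. The summed level of the 15 genes was 144 to 157 FPKM in control against 68.8 to 82.9 FPKM in NEC, without overlap.

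Pattern-recognition and NF-kappaB genes changed in both directions, 4 higher and 6 lower of 23 tested, with a median of 0.09. Ly96, the co-receptor that lets TLR4 see lipopolysaccharide, fell from 14.7, 12.5 and 15.6 FPKM to 2.82, 2.81 and 3.30 FPKM (-1.94 ± 0.12 SE). The adaptor Myd88 fell by 0.85, the kinase gene Irak2 by 1.18 and Sigirr, which dampens TLR and interleukin 1 receptor signals, by 1.33. Traf6, the ubiquitin ligase downstream of these receptors, rose from 2.95, 3.37 and 4.04 FPKM to 12.3, 11.5 and 11.9 FPKM (1.54 ± 0.12 SE). Tlr5, the flagellin receptor, rose by 0.68. Tlr4 itself averaged 0.31 FPKM in control against 1.1 FPKM in NEC and did not pass the filter.

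Epithelial antimicrobial genes were mostly higher in NEC, 8 of 11 tested, with 2 lower and a median of 1.26. Without control library 3 the count was 9 higher and 2 lower, with a median of 1.36. Pigr, which carries IgA across the epithelium, rose from 6.56, 8.53 and 10.8 FPKM to 59.7, 57.8 and 82.2 FPKM (2.82 ± 0.20 SE, adjusted p = 1.02e-04). The C-type lectin genes Reg4 and Reg3a rose by 1.44 and 1.99, the oxidase gene Duox2 by 1.26, inducible nitric oxide synthase Nos2 by 1.08 and the acute-phase gene Saa3 by 1.24. Duox2, Nos2 and Saa3 remained at 1.36 to 3.12 FPKM in the NEC libraries. The NEC libraries alone thus met the filter of 1 FPKM in at least 3 libraries for them. Their rises, which are in the count above, follow in part from that filter. Reg3b was not called, at 11.2, 9.37 and 201 FPKM in control against 84.9, 126 and 332 FPKM in NEC, with control library 3 inside the NEC range. Tifa, an adaptor for bacterial sugar sensing, fell from 76.3 to 92.6 FPKM to 27.5 to 41.0 FPKM.

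Complement genes had 1 rise and 3 falls among 12 tested, and a median of -0.02 that turned above 0 under 4 scalings, to 0.21 with equal library totals. C2, a protease of the classical pathway, fell from 47.6, 36.4 and 50.1 FPKM to 7.91, 6.67 and 8.22 FPKM (-2.40 ± 0.15 SE), and Cfi, an inhibitor of complement, by 2.14. C2 shares 42.8% of its exon bases with Gm20547, so its level is uncertain. Genes of programmed cell death had 5 rises and 13 falls among 31 tested, with a median of -0.23. The inflammasome sensor Naip5, its protease Casp1 and its pore Gsdmd changed together, by -1.81, -1.52 and -1.75. Casp1 stood at 104, 92.1 and 134 FPKM in control against 36.8, 36.7 and 38.0 FPKM in NEC. Bax, which opens mitochondria in apoptosis, fell from 96.1, 70.1 and 97.9 FPKM to 20.4, 26.3 and 29.9 FPKM, while Apaf1, Bcl2l11 and Bcl2 rose by 0.62, 0.46 and 0.52, and the necroptosis kinase gene Ripk3 by 0.48. Ripk3 lost its call in 5 of 21 alternatives.

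Among the lists of absorptive enterocyte genes, the suckling list had a median farther from 0 than the mature and weaning lists. Of 16 genes known from the suckling enterocyte, 15 were tested, 11 fell, 2 rose and 2 were not called, with a median of -1.46. Fcgrt, the receptor that takes up maternal IgG, fell from 679, 1107 and 579 FPKM to 68.1, 83.8 and 96.4 FPKM (-3.19 ± 0.25 SE, adjusted p = 1.29e-04). Amn and Dab2, parts of the machinery that takes up milk proteins, fell by 2.34 and 1.75, and Ass1, which makes arginine in suckling enterocytes, by 2.43. Lct, lactase, chosen for mention after its values were seen, fell from 111, 172 and 69.9 FPKM to 12.5, 27.7 and 15.8 FPKM (-2.58 ± 0.37 SE). Fgfbp1, a carrier of fibroblast growth factors, rose by 1.94.

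Genes known to rise at weaning went the other way or were not called. Of 10 such genes, 8 were tested, 4 rose and 4 were not called, with a median of 0.51. Beside Sis, the maltase-glucoamylase gene Mgam rose from 42.1, 41.7 and 57.8 FPKM to 200.1, 255 and 245 FPKM (2.29 ± 0.17 SE), Ada, adenosine deaminase, by 1.38 and the fructose transporter gene Slc2a5 by 0.54. Slc2a5 lost its call in 8 of 20 alternatives, and without control library 3 the list had 3 members higher. Treh, trehalase, changed little between group means of 1.1 FPKM each, and Arg2 did not pass the filter. Whether the mice of both groups were of the same age is not stated in any source used here.

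Lysosomal hydrolase genes, abundant in these controls, fell with the suckling genes. All 24 listed genes were tested, 18 fell, 16 of them by at least 1, and 2 rose, with a median of -1.40. Their summed level was 8778 to 10770 FPKM in control against 2748 to 3107 FPKM in NEC. Ctsl, cathepsin L, fell from 374, 577 and 239 FPKM to 28.6, 24.0 and 25.6 FPKM (-3.79 ± 0.29 SE), and Ctsa, cathepsin A, from 836, 770 and 853 FPKM to 159, 169 and 188 FPKM (-2.25 ± 0.12 SE). Ctsz, Fuca1 and Gaa fell by 1.88, 1.68 and 1.55. Ctsc, which activates granule proteases, rose by 1.46. The list's median was -1.70 in CKO intestine.

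The E-box letters CACGTG, which lie within the known lysosomal gene element, were in the promoters of 8 of 18 tested hydrolase genes with a promoter in the table (44.4%), over 300 bases around the start. The share was 11.8% over all tested genes, 12.8% in genes called lower and 11.7% in genes called higher. The letters read alike on both strands, and they hold the shorter ACGTG. The 150 bases before the start are shown for Gaa (chr11:119267813-119267962, plus strand) and Glb1 (chr9:114400928-114401077, plus strand), both called lower, with the match in capitals, 5′ to 3′, from RefSeq on GRCm38.p6.
Gaa: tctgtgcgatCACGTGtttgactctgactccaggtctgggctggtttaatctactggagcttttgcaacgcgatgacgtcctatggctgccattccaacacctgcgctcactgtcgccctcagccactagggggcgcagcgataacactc
Glb1: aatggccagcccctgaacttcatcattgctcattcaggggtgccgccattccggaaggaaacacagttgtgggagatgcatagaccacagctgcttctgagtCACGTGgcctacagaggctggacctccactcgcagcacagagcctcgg
Glb1, the beta-galactosidase that is on the suckling list too, fell from 266, 284 and 309 FPKM to 93.2, 104 and 113 FPKM, and Gaa, acid glucosidase, from 72.3, 72.7 and 83.3 FPKM to 23.5, 23.7 and 29.1 FPKM. The groups did not overlap for either gene. The 150 bases before the RefSeq start of Ctsl, Ctsz and Fuca1, also called lower, held no match. The Ctsl window (chr13:64370521-64370670, minus strand) lies wholly inside the gene as placed here (chr13:64359337-64370890). It thus does not cover the bases before the gene's start by those coordinates. The Gaa window runs partly into its gene.

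Genes of the mature enterocyte changed in both directions, 8 lower and 3 higher of 20, with a median of -0.42 that turned to 0.37 under quantile normalization and was -0.31 without control library 3. Apoa1, an apolipoprotein of chylomicrons and HDL, fell from 11518, 12337 and 12454 FPKM to 2298, 3811 and 3022 FPKM (-2.02 ± 0.22 SE), a change that was 0.11 and not called under quantile normalization. Alpi, intestinal alkaline phosphatase, fell by 1.54 and Cdhr5, a cadherin that links microvilli, by 1.73. Mttp, which loads fat onto apolipoprotein B, rose from 93.8, 150 and 131 FPKM to 323, 504 and 294 FPKM (1.56 ± 0.25 SE), and Slc5a1, the sodium-glucose carrier SGLT1, by 1.16. Vil1, Anpep and Fabp2 were not called.

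Fat absorption followed the same mixed course, 9 lower and 3 higher of 21, with a median of -0.44 that turned to 0.09 under quantile normalization and was -0.28 without control library 3. Apoc3 fell from 1420, 1644 and 944 FPKM to 109, 196 and 115 FPKM (-3.26 ± 0.29 SE), and Apoa4 by 1.18. Apoa4 shares 34.9% of its exon bases with Gm47528 on the other strand. Mogat2 and Dgat1, which rebuild triglyceride, fell by 0.94 and 0.70, while Cd36, a fatty acid receptor, and Acsl3, which activates fatty acids, rose by 1.45 and 1.05.

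Nutrient transporter genes had 8 falls and 2 rises among 17, with a median of -0.23 that turned to 0.01 with equal library totals. Without control library 3 the count was 8 falls and 5 rises, with a median of -0.32. The nucleoside carrier gene Slc28a2 fell from 60.5, 54.6 and 58.1 FPKM to 20.5, 22.0 and 20.7 FPKM. Slc23a1, for vitamin C, and Slc46a1, for folate, fell by 1.57 and 1.41, and the amino acid transporter genes Slc3a2 and Slc7a9 by 1.05 and 0.89.

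Cholesterol synthesis genes rose as a group, 17 of 23 tested with 1 lower, and a median of 0.95. The pathway is switched on by the factor SREBP2 when sterols are low in the cell. Idi1, which makes an isoprenoid building block, rose from 1.35, 1.77 and 1.26 FPKM to 9.82, 13.6 and 7.89 FPKM (2.19 ± 0.19 SE, adjusted p = 1.61e-04). Sqle, squalene epoxidase, rose from 5.93, 6.17 and 5.38 FPKM to 17.2, 23.6 and 17.5 FPKM, and Hsd17b7, a later enzyme, by 1.49. The groups did not overlap for Idi1 or Sqle. Ebp fell by 0.64. The median in CKO intestine was 0.60.

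The median of the bile acid list and the call of Fgf15 changed without control library 3. Slc10a2 and Nr0b2 kept their calls in every alternative in which they were tested. Slc10a2, the ileal bile acid importer, stood at 0.0490, 0.0670 and 6.73 FPKM in control against 15.1, 20.9 and 19.5 FPKM in NEC (3.23 ± 0.72 SE, adjusted p = 0.00680). Nr0b2, a target of the bile acid receptor, fell from 2.82, 6.82 and 4.90 FPKM to at most 0.0564 FPKM. Fgf15, the hormone that reports bile acids to the liver, changed by -1.21 ± 0.43 SE with overlap between groups, and lost its call in 11 of 21 alternatives, the replicate block and leaving out control library 3 among them. The list had 2 rises and 2 falls among 9, and its median was -0.41. That median turned to 0.06 without control library 3 and to 0.08 under quantile normalization.

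Iron and vitamin A genes changed in both directions. Slc11a2, the iron importer of the brush border, fell from 83.9, 86.3 and 62.2 FPKM to 16.5, 16.8 and 16.9 FPKM (-2.13 ± 0.14 SE), and the exporter Slc40a1 by 1.16. The ferritin genes Ftl1 and Fth1, which have many processed copies, fell by 1.87 and 1.22, while Tfrc, the transferrin receptor, rose by 1.16. Lrat, which stores retinol as ester, fell from 7.06, 9.90 and 7.50 FPKM to 0.626, 0.286 and 0.593 FPKM (-2.60 ± 0.16 SE), and Dhrs3, which makes retinol from retinal, by 1.22. The iron list had 3 higher and 6 lower of 13 and the vitamin A list 3 higher and 4 lower of 10. Leaving out control library 3 gave 4 higher and 6 lower on the iron list and 3 higher and 5 lower on the vitamin A list.

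Arginine is made in suckling but little in adult enterocytes. Ass1 and Asl, its last steps, fell from 196, 275 and 156 FPKM to 40.7, 34.0 and 36.6 FPKM and from 92.1, 75.9 and 77.6 FPKM to 25.0, 27.1 and 29.5 FPKM. Nags, Oat and Aldh18a1, earlier in the route, fell by 1.03, 0.91 and 0.66. Otc and Cps1, of the same route, changed by -0.45 and 0.54, but Otc lost its call in 10 of 21 alternatives and Cps1 in 4, and Aldh18a1 lost its call in 2, equal library totals and quantile normalization. Slc7a1, which imports arginine, rose from 1.37 to 1.77 FPKM to 7.44 to 7.75 FPKM (1.76 ± 0.11 SE), and Odc1, which leads to polyamines, by 1.02. In all, 5 of 16 tested genes rose and 6 fell.

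**Figure D4:**
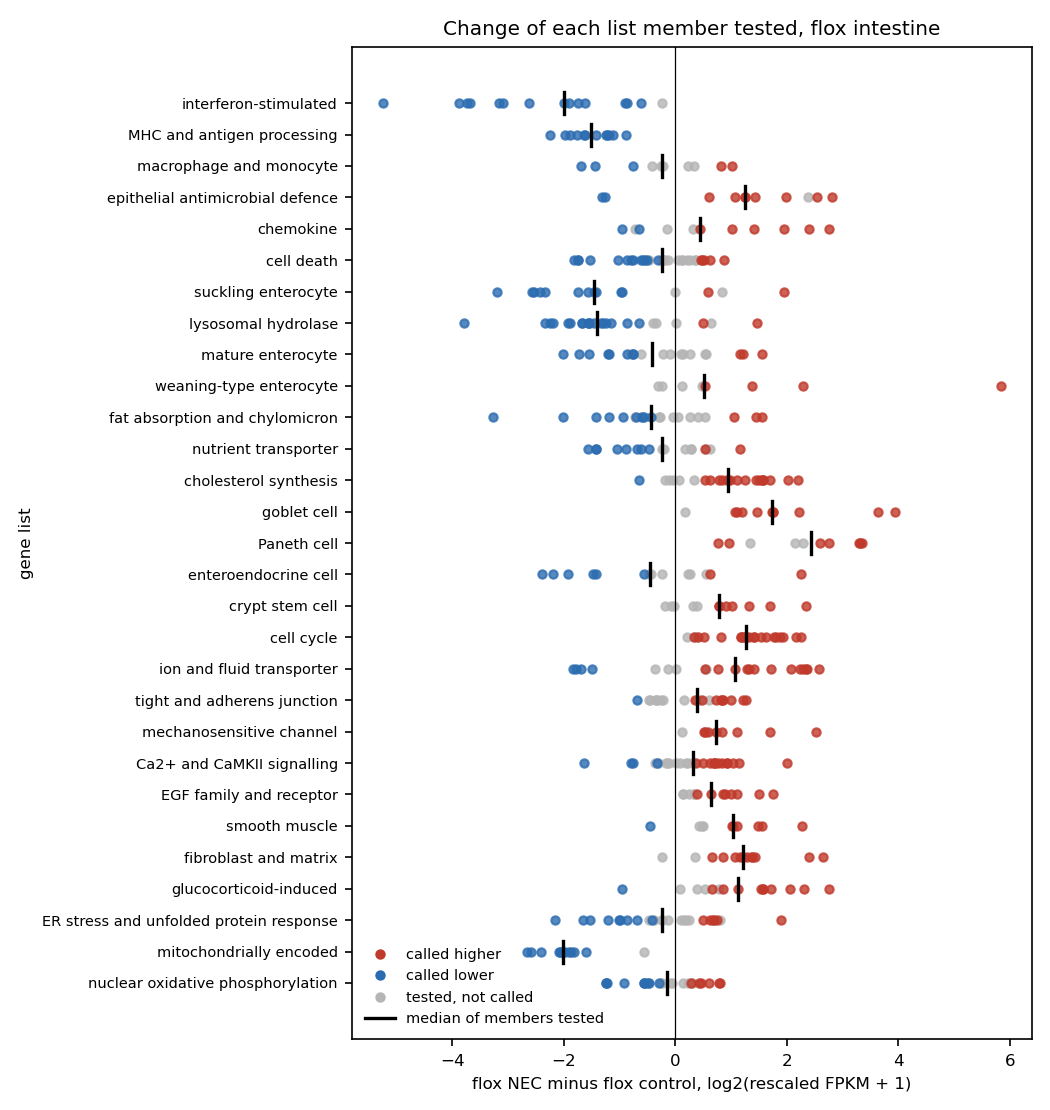
Change of each tested member of 29 gene lists (x axis, flox NEC minus flox control, log2(rescaled FPKM + 1)), with members called higher in red, called lower in blue and not called in grey, and a bar at the list's median. Goblet, Paneth, cell cycle and matrix lists lie above 0, and interferon, MHC, suckling, lysosomal and mitochondrially encoded lists below, under every scaling run. The medians of the ER stress, nuclear oxidative phosphorylation, mature enterocyte, fat absorption and nutrient transporter lists turned sign under equal library totals or quantile normalization.

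Goblet cell genes rose almost throughout. Of 12 listed, 11 were tested, 10 rose, all by at least 1, and 1 was not called, with a median of 1.74 against 8.42% of all genes higher by at least 1. Muc2, the main gel-forming mucin, went from 20.1, 21.7 and 22.9 FPKM to 59.2, 68.8 and 102 FPKM (1.75 ± 0.20 SE). Zg16, a lectin that keeps bacteria off the epithelium, rose from 0.108, 0.498 and 0.453 FPKM to 13.2, 16.1 and 34.2 FPKM (3.93 ± 0.33 SE). Spink4, a protease inhibitor gene, rose by 3.63, Clca1, which processes mucus, by 2.22, and the secretory regulator Creb3l1 by 1.46. Tff3, a trefoil peptide of the same cells, was not called, at 355 to 529 FPKM in control against 415 to 645 FPKM in NEC. In CKO intestine the list's median was 1.22.

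Paneth cell genes, which encode the antimicrobial peptides of the crypt base, were higher too, though control library 3 lay between the groups. Of 14 listed, 10 were tested, 7 rose and 3 were not called, with a median of 2.43. Lyz1, lysozyme, stood at 0.376, 0.716 and 13.1 FPKM in control against 31.9, 31.7 and 31.1 FPKM in NEC (3.34 ± 0.79 SE). Itln1, intelectin, was at 0.119, 0.122 and 7.11 FPKM in control against 16.3, 14.8 and 10.3 FPKM in NEC. Mmp7, the protease that activates defensins, rose from 0.191, 1.30 and 1.47 FPKM to 16.1, 18.0 and 18.8 FPKM (3.30 ± 0.27 SE). The defensin genes Defa24 and Defa17 rose by 3.32 and 2.59, and as members of a family of near-identical copies their own shares of reads are uncertain. Without control library 3 all 10 tested genes were called higher and the median was 3.49.

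Enteroendocrine genes did not move together. Of 14 tested, 6 fell and 2 rose, with a median of -0.45. Nts, neurotensin, fell from 189.7, 191 and 168 FPKM to 32.5, 31.3 and 39.1 FPKM (-2.39 ± 0.13 SE, adjusted p = 4.64e-05). Sct, Gip, Pyy and Sst, for secretin, GIP, peptide YY and somatostatin, fell by 2.20, 1.92, 1.48 and 1.42. Gcg, which gives GLP-1 and GLP-2, rose from 5.40, 4.93 and 8.95 FPKM to 37.7, 28.7 and 35.1 FPKM (2.26 ± 0.21 SE). Chga, the general marker of these cells, was not called, with group means of 19.9 and 14.1 FPKM. Tuft cell genes were too low to follow, with 7 of 11 under 1 FPKM in every library.

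Genes of crypt stem cells and of dividing cells were higher in NEC. Of 12 stem cell genes, all tested, 7 rose and 5 were not called, with a median of 0.78. Lgr5, the Wnt-amplifying receptor that marks the crypt base, rose from 0.661, 0.704 and 0.395 FPKM to 3.13, 2.19 and 3.69 FPKM (1.32 ± 0.18 SE). Rnf43 and Znrf3, Wnt feedback inhibitors, rose by 0.78 and 0.91 and the cell cycle kinase gene Cdk6 by 1.02. Olfm4 was not called, at 11.8 to 31.1 FPKM in control against 13.7 to 16.6 FPKM in NEC.

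Of 23 cell cycle genes, all tested, 20 rose, 16 of them by at least 1, and 3 were not called, with a median of 1.28. Ccnb1, cyclin B1, stood at 2.19, 3.05 and 0.709 FPKM in control against 13.2, 12.5 and 11.4 FPKM in NEC (2.25 ± 0.29 SE). Cdc20 and Plk1, which drive mitosis, rose by 2.17 and 1.41 and the replication helicase subunit gene Mcm5 by 1.40. Control library 3 was the lowest control for Ccnb1, Cdc20 and Plk1, and without it 18 members rose with a median of 1.03.

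Ion and fluid transporter genes were mostly higher in NEC. Of 21 tested genes, 13 rose, 11 by at least 1, and 4 fell, with a median of 1.07. Leaving out control library 3 also gave 13 higher and 4 lower, with a median of 0.94. Slc12a2, the NKCC1 cotransporter that loads chloride for secretion, rose from 9.71, 10.9 and 8.73 FPKM to 52.4, 50.1 and 57.2 FPKM (2.33 ± 0.12 SE, adjusted p = 4.49e-05). Cftr, the chloride channel through which it leaves, rose from 2.64, 3.29 and 2.09 FPKM to 14.1, 16.3 and 12.6 FPKM. The water channel Aqp1, the bicarbonate cotransporter Slc4a4 and the potassium channel Kcnq1 rose by 2.57, 2.28 and 2.23. Guca2a, guanylin, fell from 3073, 2268 and 5414 FPKM to 797, 1040 and 1122 FPKM, Guca2b by 1.49 and Scnn1a, a subunit of the epithelial sodium channel, by 1.69.

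Junction genes had 9 higher and 1 lower of 21 tested, and a median of 0.39. Tjp1, the ZO-1 scaffold of tight junctions, rose from 8.86, 10.1 and 10.1 FPKM to 23.0, 25.9 and 22.7 FPKM (1.22 ± 0.11 SE). Cdh1, E-cadherin, rose by 0.84, the sealing claudin genes Cldn4 and Cldn23 by 1.00 and 1.26, and Cldn2, which forms a pore for cations and water, by 0.73. Ctnnd1, p120-catenin, fell by 0.68, but it shares 61.2% of its exon bases with Gm28635, so its level is uncertain.

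Genes of the EGF family and its receptors had 8 rises among 13 tested, with 5 not called, and a median of 0.64. Ereg and Areg, epiregulin and amphiregulin, rose from 1.12, 0.522 and 1.71 FPKM to 5.62, 6.18 and 6.07 FPKM and from 3.63, 3.78 and 3.81 FPKM to 12.3, 9.24 and 16.4 FPKM. Btc and Tgfa rose by 1.101 and 1.00, the receptor gene Erbb3 by 0.89 and the inhibitor gene Errfi1 by 0.86. The list of YAP targets and injury-response genes, which also holds Ereg and Areg, had 5 higher and 1 lower of 14. Among its other rises were Krt20 (1.599) and Anxa1 (1.01), and Ly6a, a marker of injured epithelium also known as Sca-1, changed by -0.74 and lost its call in 7 of 21 alternatives. Clu, a marker of revival stem cells, was not called.

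Many genes of muscle, connective tissue and vessels were higher in NEC. Smooth muscle genes had 6 of 10 higher, each by at least 1, and 1 lower, with a median of 1.03. Actg2, enteric smooth muscle actin, rose from 188, 247 and 198 FPKM to 1241, 862 and 986 FPKM (2.28 ± 0.18 SE), and Myh11, its myosin, by 1.48. The lower gene, Tagln, stood near 2 FPKM in control although it is abundant in smooth muscle, and shares 62.4% of its exon bases with Gm48529, so its level is uncertain.

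Fibroblast and matrix genes had 11 of 13 higher and 2 not called, with a median of 1.21. Fn1, fibronectin, rose from 4.88, 8.04 and 6.84 FPKM to 51.3, 39.0 and 47.1 FPKM (2.64 ± 0.18 SE), Fbn1, fibrillin, by 2.40 and Col6a2, Col6a1 and Col3a1 by 1.43, 1.17 and 1.28. Endothelial genes had 6 of 12 higher and 1 lower, with Pecam1 at 1.04 and Kdr, the VEGF receptor, at 1.19. Metalloproteinases and inhibitors had 8 of 13 higher, among them Adamts1 (2.07 ± 0.14 SE) and Mmp2 (1.28). Nerve and glial genes had 3 of 10 lower, with S100b, a glial calcium-binding protein, at -1.15 ± 0.20 SE.

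The summed level of the smooth muscle list was 775 to 988 FPKM in control against 1924 to 3029 FPKM in NEC, and that of the matrix list 337 to 533 and 802 to 1064 FPKM. The mature enterocyte list summed to 24610 to 28330 FPKM in control against 8892 to 13460 FPKM in NEC. That sum was carried by Apoa1, which averaged 12103 FPKM in control against 3044 FPKM in NEC, and 9 of the 20 genes on that list were not called. The part of the balance of muscle, stroma and epithelium in the changes of all other groups was not tested.

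Glucocorticoid-induced genes had 10 of 15 higher and 1 lower, with a median of 1.12. The summed level of the list was 496, 373 and 960 FPKM in control against 881 to 976 FPKM in NEC. Control library 3 thus lay inside the NEC range, and leaving it out gave 13 higher and 1 lower, with a median of 1.22. Fkbp5, the chaperone by which glucocorticoid signalling limits itself, rose from 0.731, 0.991 and 1.45 FPKM to 9.60, 16.7 and 13.0 FPKM (2.76 ± 0.21 SE, adjusted p = 1.23e-04). Per1, Zbtb16 and Ddit4 rose by 1.56, 1.53 and 1.12. Mt2, a metallothionein, rose by 1.72 ± 0.26 SE, and shares 73.5% of its exon bases with Gm45774 on the other strand, which averaged 8.50 FPKM in control against 3.16 FPKM in NEC. Mt1 was not called.

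Hypoxia and glycolysis genes had 14 of 30 higher and 5 lower, with a median of 0.23. Hif1a and Epas1, the oxygen-regulated factors, rose by 1.08 and 0.97, Pdk1, which keeps pyruvate out of mitochondria, by 1.09, and Pgk1 from 49.8, 56.0 and 62.6 FPKM to 121, 142 and 124 FPKM. Vegfa and Bnip3, known targets of those factors, fell by 0.71 and 0.98, and Ankrd37 by 2.04. Immediate early genes had 6 higher and 5 lower of 16, with Klf6, Fos and Myc at 1.40, 1.14 and 1.07 and Jun at -0.96.

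Genes of the unfolded protein response changed in both directions. The list had 6 higher and 9 lower of 25, and its median of -0.24 turned to 0.01 with equal library totals and 0.08 under quantile normalization. The sensors Ern2, Atf6 and Ern1 rose by 1.89, 0.75 and 0.49. Ddit3, the death-promoting factor CHOP, fell from 40.3, 36.4 and 48.7 FPKM to 6.81, 9.42 and 9.58 FPKM (-2.16 ± 0.16 SE), and the folding factors Creld2, Manf and Calr by 1.66, 1.20 and 0.99. Heat shock genes had 4 higher and 6 lower of 14, with Hsp90ab1 at 0.94 and Hspa8 at -0.68.

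Oxidant and antioxidant genes had 5 higher and 8 lower of 23, and a median of -0.33 that turned to 0.04 under quantile normalization. Leaving out control library 3 gave 8 higher and 7 lower, with a median of -0.15. Gpx2, the intestinal glutathione peroxidase, rose from 4.42, 3.45 and 9.54 FPKM to 24.5, 32.5 and 24.0 FPKM. Nox4, an oxidase that makes hydrogen peroxide, fell from 7.98, 10.4 and 4.29 FPKM to 0.522, 0.407 and 0.508 FPKM (-2.46 ± 0.26 SE). Hmox1, heme oxygenase, and Cat, catalase, fell by 1.99 and 1.36.

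Mitochondrially encoded genes fell, 12 of 13 with 1 not called, and a median of -2.01. Cytochrome b, mt-Cytb, went from 16787, 13522 and 16148 FPKM to 4316, 3801 and 3681 FPKM (-1.97 ± 0.19 SE). Under quantile normalization, which forces the top of every library to the same values, the median was -0.36, 5 of the 13 were called lower, and mt-Cytb was not called. The nuclear genes of the same respiratory complexes did not share that course, with 6 higher and 10 lower of 24 and a median of -0.16, which turned to 0.10 with equal library totals and 0.18 under quantile normalization. Ndufa2 and Ndufb3, of complex I, fell by 1.24 and 1.25, while Atp5b and Atp5a1, of the ATP synthase, rose by 0.80 and 0.79. The median of the mitochondrially encoded list in CKO intestine was -0.95.

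Fatty acid oxidation had 7 rises and 7 falls among 22, and a median of -0.08 that turned above 0 under 4 scalings, up to 0.24. Ppara, the fatty acid receptor that drives the pathway, rose from 0.973, 1.96 and 2.80 FPKM to 8.59, 13.1 and 10.04 FPKM (2.02 ± 0.25 SE) and Cpt1a, the gate of mitochondrial import, by 1.15. Bdh1, of ketone body metabolism, fell by 0.74. Intestinal transcription factors had 8 higher and 7 lower of 23, with a median of -0.09 that turned above 0 under 4 scalings, up to 0.31, and was -0.03 without control library 3. Hnf4g rose by 1.63 while Prdm1 fell by 0.96. Prdm1, Blimp1, is known to hold the enterocyte in its suckling state.

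Among genes of the JAK-STAT3 axis 9 rose and 4 fell of 17, with a median of 0.39. Il22ra1, the receptor for interleukin 22, rose from 7.63, 11.3 and 12.6 FPKM to 30.1, 37.4 and 36.4 FPKM (1.65 ± 0.19 SE), the kinase genes Jak2 and Jak1 by 0.99 and 0.60, and the shared receptor gene Il6st by 1.08. Socs3, the feedback inhibitor, and Pim1, a target of STAT3, fell by 0.97 and 0.99. Il10rb, which also serves interleukin 22, fell by 1.69. The ligand gene Il22 had no read in the 6 libraries.

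The CKO libraries gave a separate comparison of NEC with control under the same confounding of condition with table. Of the 7772 genes called in flox intestine, 7177 changed in the same direction in CKO intestine. List medians did not all share the flox direction. In CKO the junction, immediate early and JAK-STAT3 medians were -0.16, -0.09 and -0.15, against 0.39, 0.43 and 0.39 in flox. The inflammatory cytokine and oxidant medians were 0.12 and 0.05 in CKO, against -0.50 and -0.33 in flox. The differences between these medians were not tested. The difference of the 2 changes was called for 114 of 14688 genes tested (0.776%), 92 with a more positive change in flox and 22 with a more negative one, and 3036 had an unadjusted p below 0.05. With 1 library left out at a time, genes with an unadjusted p below 0.05 numbered 2311 to 3649, but the count of called genes was unstable. It was 1 to 3 genes without flox control 1 or 2, any flox NEC library, CKO control 1 or 2, or CKO NEC 1 or 2, 536 without flox control 3, 287 without CKO control 3 and 44 without CKO NEC 3.

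On the gene lists, 4 members differed. Il22ra1 rose in flox as above, but in CKO stood at 26.7, 33.4 and 31.3 FPKM without injury and at 23.6, 40.8 and 33.4 FPKM with NEC, and the difference of the changes was 1.58 ± 0.30 SE (adjusted p = 0.0485, limma interaction). Its NEC levels overlapped between genotypes, and its control levels were lower in each flox library than in each CKO library. The same held for Hnf4g, at 13.8, 12.2 and 17.6 FPKM in flox control and 41.1, 45.7 and 40.9 FPKM in CKO control, with 46.4, 54.3 and 40.3 FPKM in flox NEC and 48.4, 52.7 and 48.0 FPKM in CKO NEC (difference 1.41 ± 0.20 SE, adjusted p = 0.0388). For Tjp1 the difference was 0.81 ± 0.16 SE, and for Jak1, which changed by 0.60 in flox and by -0.20 in CKO, 0.79 ± 0.16 SE, each with an adjusted p of 0.0485. None of these 4 calls was stable: of 18 alternatives, Il22ra1 lost its call in 10, Hnf4g in 9, Tjp1 in 11 and Jak1 in 12, most of them with 1 library left out. Tjp1 and Jak1 also lost it with equal library totals, and Jak1 with the replicate block.

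**Figure D5:**
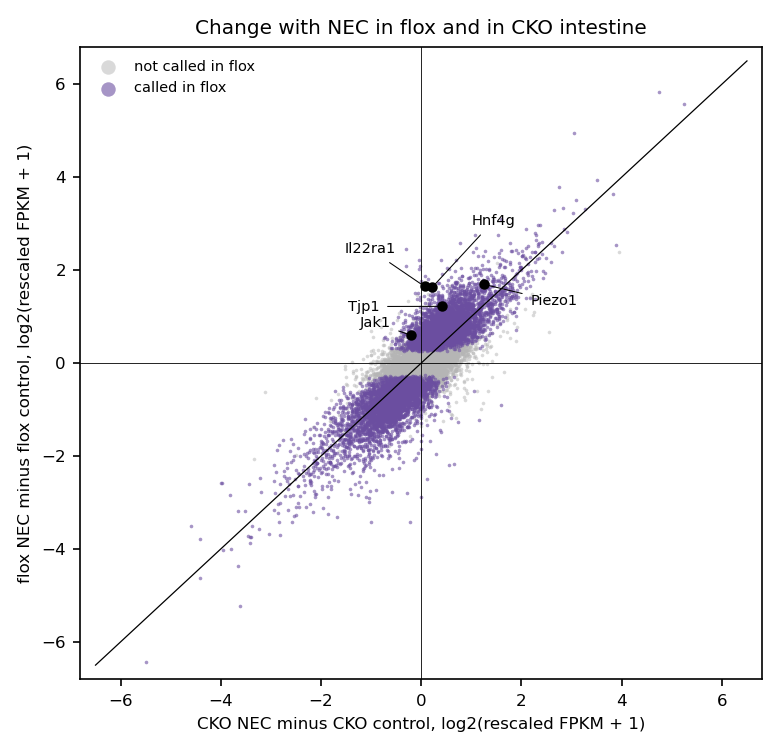
Change with NEC in flox intestine (y axis) against the change with NEC in CKO intestine (x axis), both on log2(rescaled FPKM + 1), for the genes tested in flox, with genes called in flox in purple and a line of equal change. Most called genes lie in the quadrants of shared direction, and Il22ra1, Hnf4g, Tjp1 and Jak1 lie above the line.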

How the data were processed

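Per the labels' protocols, RNA was isolated with Trizol, and NEBNext Ultra II RNA reagents were used to make libraries. That kit does not mark strand, so reads of overlapping genes on opposite strands cannot be told apart. The deposited values are FPKM per gene, in one table for the NEC and another for the control libraries. No source used here names the aligner, the counter or the genome build. Of 54409 genes matched by identifier to the GENCODE M21 annotation of GRCm38, 98.3% had identical coordinates, and those coordinates are printed.

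Whole reads were recovered from FPKM and gene length (100% of values within 0.05 of a whole number) and rescaled with median-of-ratios factors computed over the 12 libraries together. Genes with at least 1 rescaled FPKM in at least 3 of the 6 flox libraries were tested with limma 3.58.1 (R 4.3.3) on log2(rescaled FPKM + 1) with a mean-variance trend, 3 libraries against 3, with Benjamini-Hochberg adjustment at 0.05. The difference of the flox and CKO changes was an interaction term over all 12 libraries. The fitting code was tested on simulated data. Tables and figures were made with Python 3.11.15. Read totals limit precision most for genes near 1 FPKM.

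Genes named were Piezo1 and the 4 CaMKII genes, the 15 largest rises and 15 largest falls among called genes whose groups did not overlap (leaving out predicted models), up to 6 called members per list and direction by smallest p, and cell-type-defining members that were not called. Some genes that share exon bases with a named gene were named for that overlap, but not all. Ctsl shares 26.9% of its exon bases with Gm47123 and Fgf15 24.9% with Gm26793, both on the other strand. The members and lists were chosen with earlier results of these data known, and list sizes count the genes found in the tables. Alternatives covered scaling, filter, pseudocount, limma-voom on the recovered reads, the replicate block and leaving out each library, and sex by Xist as a covariate was added after seeing the data. Replicate numbers did not pair the samples. Some genes that this rule names are not reported here.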

Additional observations from a re-analysis of the deposited data

Results flagged for a closer look

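The change with NEC differed between flox and CKO intestine for 114 genes by a test of the difference itself (limma interaction term). Among the genes on the lists, the flox change less the CKO change was 1.58 for Il22ra1, 1.41 for Hnf4g, 0.81 for Tjp1 and 0.79 for Jak1 on the log2 scale. All 4 were more positive in flox, and each lost its call in 9 to 12 of 18 alternatives. The count of such genes was unstable, from 1 to 536 when each library was left out in turn.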

How the results depend on the processing

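Over the alternatives run, the counts of genes called higher and lower stayed within 1.5 times the values reported, apart from those given here. Requiring a mean of at least 5 FPKM left 7644 genes to test in place of 13798. Of these, 4876 were called, 2266 of them higher and 706 higher by at least 1. Genes higher by at least 1 numbered 1901 with equal library totals, 1789 with a pseudocount of 0.1 and 1897 with limma-voom, and genes lower by at least 1 numbered 916 with equal library totals. Leaving out each flox library in turn gave 3263 to 4164 genes higher and 3242 to 3913 lower. The flox and CKO changes differed for 114 of 14688 genes as reported and for 181 of 14808 with the FPKM as deposited. With a mean of at least 5 FPKM they differed for 354 of only 7669 tested. When each library was left out they differed for 1 to 536 genes. The cause of these shifts was not tested.

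With equal library totals the medians of the ER stress, nuclear oxidative phosphorylation and nutrient transporter lists turned to 0.014, 0.10 and 0.014. Under quantile normalization the medians of the mature enterocyte, ER stress, oxidant, nuclear oxidative phosphorylation and fat absorption lists turned to 0.37, 0.076, 0.043, 0.18 and 0.092, and Apoa1, Apoa4, Fth1 and Oat to 0.11, 0.65, 0.15 and 0.14, none of them called. Of 251 named genes called, 225 stayed called in every alternative in which they were tested. With the replicate block 7173 genes were called, 3598 higher and 3575 lower, and 116 differed between flox and CKO. Same-numbered control and NEC libraries deviated together with correlations of 0.003, -0.049 and 0.10, so the numbers are no pairing. Sex by Xist as a covariate, chosen after seeing the data, gave 3581 higher and 3482 lower. Condition and deposited table cannot be told apart under any alternative.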
